A study of Homo sapiens with 6 samples.

Results

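The aminoacyl-tRNA synthetases were examined in DU145, an established human prostate cancer cell line, in cells carrying lentivirus-circCSPP1 or the control lentivirus-NC. Genes were taken by symbol, as every A to Y single-letter amino acid code followed by ARS with an optional suffix, plus EPRS, TARSL2 and the scaffold proteins AIMP1, AIMP2 and EEF1E1. Of the 19727 genes in the deposited table, 40 taken in this way are described, of which 21 encode cytosolic enzymes, 16 encode mitochondrial enzymes (symbols ending in ARS2) and 3 encode scaffolds. The table uses older symbols, so that AARS stands for the gene now called AARS1. All 40 passed the filter on low values. The lentivirus-circCSPP1 cells overexpress the circular RNA circCSPP1, the lentivirus-NC cells are labelled normal, and the study kept both as stable lines after puromycin selection. Each group holds 3 libraries of polyadenylated RNA. No source used here says that the 3 libraries of a group came from separate cultures, so p-values measure the spread between these libraries, which may be technical. The paper describes the control as an empty vector, and no source used here compares the constructs further. The 2 lines differ in construct and in circle, so these, and differences between stable lines, cannot be told apart. Below, values of a gene are given in the order of replicates 1, 2 and 3, with lentivirus-NC first and lentivirus-circCSPP1 after "against".

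Aminoacyl-tRNA synthetases join each amino acid to its tRNA, the step that fixes the genetic code before a charged tRNA reaches the ribosome. They fall into class I and class II, which have unrelated catalytic folds. In the cytosol, several of the enzymes sit together in the multisynthetase complex, which AIMP1, AIMP2 and EEF1E1 hold in place, and the rest act outside it. Mitochondria translate with a separate set of enzymes, encoded in the nucleus and imported, while GARS and KARS each serve both compartments and are counted here as cytosolic by their symbols. EPRS carries the glutamate and proline activities in a single chain, and FARSA and FARSB are the subunits of the cytosolic phenylalanine enzyme. Genes of many cytosolic synthetases are known targets of ATF4, the transcription factor of the integrated stress response, which acts with C/EBP partners on a composite element in their promoters.

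Depth, read from the steps between low FPKM values (fragments per kilobase of a transcript for every 1000000 fragments) in short genes with a single transcript, was between 28900000 and 36700000 fragments per library and overlapped between the groups. PARS2, the gene with the fewest fragments among the 40, had about 221 to 376 per library, if its longest coding transcript is the one expressed. CSPP1, the parent gene of the circle, measured 9.11, 10.1 and 9.44 FPKM in the lentivirus-NC libraries and 14.5, 22.8 and 21.4 in the lentivirus-circCSPP1 libraries, and a gene-level value does not separate the circle from linear transcripts. The epithelial markers KRT8, KRT18, EPCAM and CDH1 were expressed in every library, and their summed level was 1729 to 1801 FPKM with lentivirus-NC and 715 to 854 with lentivirus-circCSPP1, and the part of this difference in the results on synthetases was not tested. KLK2 and KLK3 were listed at 0 throughout, and TMPRSS2 at no more than 0.07 FPKM. PTPRC, CD3E, DCN, LUM, PECAM1 and CDH5, which mark leukocytes, fibroblasts and endothelium, stayed under 1 FPKM, while COL1A1 was 3.26 and 1.15 FPKM and CD68, a lysosomal protein that is not confined to leukocytes, 47.3 and 41.0 FPKM (means of lentivirus-NC and lentivirus-circCSPP1). Within the lentivirus-circCSPP1 group, replicate 1 stood apart from replicates 2 and 3 in step with the GC content of transcripts, so results that turn on it are given with and without it.

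The core of the composite C/EBP and ATF element, TGATGNAA or its reverse complement TTNCATCA, was looked for in the RefSeq promoters (250 bases before to 50 after the start, GRCh38.p14) of 33 of the 40 genes. AARS2, DARS, LARS, TARSL2, VARS, VARS2 and YARS had no entry. A match stood in 6 of 16 cytosolic promoters, 1 of 14 mitochondrial promoters (YARS2) and 0 of 3 scaffold promoters. Cytosolic genes that rose at an adjusted p of 0.05 by limma held a match in 4 of 7 promoters, the others in 2 of 9. SARS, WARS and GARS, which rose, held none, while IARS and TARS, which did not pass, held one each. Whether the element goes with the rises was not tested. Among all 35116 promoters of the same length 3.62% held a match, and among the 14601 of tested genes 1.95%. The 6 cytosolic windows are printed 5′ to 3′ on the strand of the gene, with the match in capitals, to show the letter at N. The search fixed the other letters of the match.
MARS: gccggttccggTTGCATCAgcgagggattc
CARS: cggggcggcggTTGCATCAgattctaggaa
NARS: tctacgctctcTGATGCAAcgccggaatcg
AARS: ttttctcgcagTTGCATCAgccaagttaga
IARS: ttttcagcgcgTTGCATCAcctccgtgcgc
TARS: gcgcctttcgaTTGCATCAgctggtccagc
They lie at chr12:57488053-57488082 (plus strand), chr11:3057407-3057436 (minus strand), chr18:57621804-57621833 (minus strand), chr16:70289675-70289704 (minus strand), chr9:92293692-92293721 (minus strand) and chr5:33440956-33440985 (plus strand). Counted from the RefSeq start, the match begins at -4 in MARS, -2 in CARS, 14 in NARS, -187 in AARS, -13 in IARS and 2 in TARS, negative positions lying upstream. All 6 read TTGCATCA or, in NARS, its reverse complement TGATGCAA, and only the letter at N was free to differ. In YARS2 the match read TGATGGAA. A match describes these letters and does not show that a factor binds there. As RNA, ATF4 measured 300.5, 302 and 286 FPKM with lentivirus-NC and 392, 380.4 and 396 with lentivirus-circCSPP1, and ASNS, the asparagine synthetase gene that is a common readout of ATF4, 110.03, 111 and 97.3 against 218, 307 and 260.5. For both genes all lentivirus-circCSPP1 libraries lay above all lentivirus-NC libraries, as for 16% of all tested genes. The log2 fold changes were 0.40 (SE 0.064, adjusted p = 0.011) and 1.29 (SE 0.13, adjusted p = 0.0029) by limma with Benjamini-Hochberg adjustment. Both genes were chosen with earlier results of these data known, and a part of ATF4 in the synthetase rises was not tested.

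Between lentivirus-circCSPP1 and lentivirus-NC, the cytosolic synthetases that passed the test were all higher. Of 21 cytosolic enzymes, 9 rose and 0 fell at an adjusted p of 0.05 (limma on log2(FPKM + 1), two-sided, Benjamini-Hochberg adjustment over all 12322 tested genes), whereas 4.69% of all tested genes rose and 6.66% fell (11.4% in either direction). Those that rose were MARS, SARS, WARS, GARS, CARS, LARS, NARS, YARS and AARS. Of the 16 mitochondrial enzymes described, 1 rose (MARS2) and 0 fell. AIMP2 was the 1 of 3 scaffolds that rose. The median log2 fold change was 0.30 for the cytosolic and -0.089 for the mitochondrial enzymes, beside -0.028 for all tested genes. Among cytosolic enzymes, 15 log2 fold changes were positive and 6 negative, and among mitochondrial enzymes 6 and 10. By values alone, the groups did not overlap for 11 cytosolic enzymes that were higher and 2 that were lower, QARS and DARS, and for 1 mitochondrial enzyme that was higher and 2 that were lower, IARS2 and TARS2, where 16% of all tested genes were higher and 20.5% lower in this way, 36.4% together. With the replicate number as a block, 8 cytosolic enzymes rose and WARS did not pass, and none of the 16 mitochondrial enzymes described passed, beside 2.95% of genes that rose and 4.54% that fell. The number of cytosolic enzymes past the threshold depended on single libraries. It was 4 without lentivirus-NC replicate 1 or 2, 5 without replicate 3 of that group, and 7 and 3 without lentivirus-circCSPP1 replicates 2 and 3. In these fits, in the same order, 146, 153, 165, 500 and 195 of the 12322 tested genes rose, beside 578 with all libraries. Those that fell numbered 154, 164, 242, 660 and 255, beside 821. Without lentivirus-circCSPP1 replicate 1 it was 15, with 13 higher and VARS and QARS lower, in a fit where 13.2% of all genes rose and 15.3% fell. The mitochondrial count was 4 without lentivirus-circCSPP1 replicate 1, with MARS2 higher and IARS2, TARS2 and VARS2 lower, and 0 without any 1 of the other 5 libraries.

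**Figure D1:**
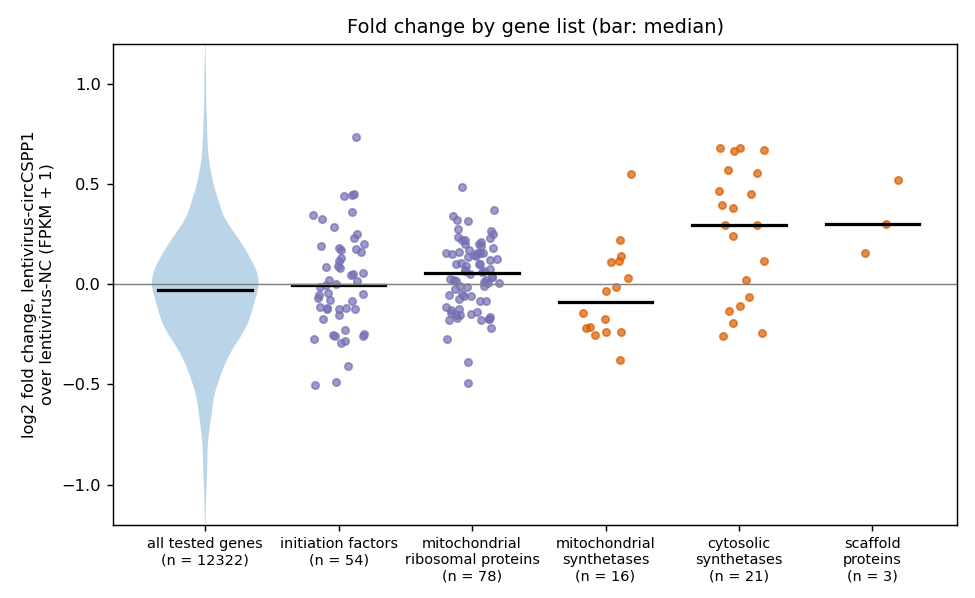
Log2 fold change of lentivirus-circCSPP1 over lentivirus-NC on the log2(FPKM + 1) scale (vertical axis) by gene list, with 1 point per gene, a bar at the median, and all tested genes as a density within the axis range. The median of the 21 cytosolic synthetases was 0.30 and that of the 16 mitochondrial ones -0.089.

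Summed levels of the classes also differed between the groups. The 21 cytosolic enzymes together measured 3382, 3335 and 3352 FPKM in the controls against 4251, 4508 and 4345. The 16 mitochondrial enzymes described together measured 354, 352 and 365 FPKM against 323, 322 and 321. Neither sum overlapped between the groups, the cytosolic being higher and the mitochondrial lower with lentivirus-circCSPP1. The most abundant mitochondrial genes, IARS2, VARS2 and TARS2, had means of 78.1, 49.1 and 44.3 FPKM against 60.5, 41.7 and 37.4. Of the 16 log2 fold changes 6 were positive and 10 negative, and none passed as lower with all libraries. For the scaffolds the sums, 103, 90.7 and 98.6 against 100.4, 146 and 131 FPKM, did overlap, with lentivirus-circCSPP1 replicate 1 inside the control range. In bulk RNA, a sum is carried by its most abundant genes, and a change in the share of cells expressing them cannot be told apart from one in their level per cell. FPKM is relative to the fragments of its library and gives no amount of RNA per cell.

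Of the 8 enzymes of the multisynthetase complex, 2 rose (25%), MARS and LARS, beside 4.69% of all tested genes. MARS (chr12:57475445-57517569, GRCh38, plus strand), the methionine enzyme that charges both initiator and elongator tRNA, measured 451, 461 and 423 FPKM against 788, 664 and 694. Every lentivirus-circCSPP1 library lay above every control, with replicate 1 the highest. The log2 fold change was 0.68 (SE 0.084, adjusted p = 0.0050). LARS (chr5:146113038-146182660, minus strand), which charges leucine and has also been described as a leucine sensor for mTORC1, measured 95.8, 98.2 and 96.5 FPKM against 116, 168 and 148. The controls were close together and the lentivirus-circCSPP1 libraries spread, replicate 1 lying lowest. Its log2 fold change was 0.55 (SE 0.13, adjusted p = 0.039). The LARS call was lost when any library other than lentivirus-circCSPP1 replicate 1 was left out (adjusted p = 0.064 to 0.14), and without that replicate the change was 0.70 (adjusted p = 0.0021), while MARS passed in each of those 6 fits. LARS also lost its call with no filter on low values, after quantile normalization and without moderation of the variance (adjusted p = 0.055, 0.058 and 0.13).

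The other 6 enzymes of the complex did not pass the threshold. IARS, the isoleucine enzyme, came nearest, with 157, 134 and 147 FPKM against 168, 196 and 209 and a log2 fold change of 0.38 (SE 0.11, adjusted p = 0.060). Its groups did not overlap, and the change was 0.47 (adjusted p = 0.0089) without lentivirus-circCSPP1 replicate 1. EPRS measured 95.6, 91.6 and 92.9 FPKM against 87.6, 138 and 125. Here replicate 1 of lentivirus-circCSPP1 was below all controls while replicates 2 and 3 were above them. The log2 fold change went from 0.30 (SE 0.16, adjusted p = 0.28) to 0.49 (adjusted p = 0.0043) without replicate 1. It was 0.16 and 0.24 without replicates 2 and 3 (limma adjusted p = 0.50 and 0.51). In the fit without replicate 1, 13.2% of all tested genes rose and 15.3% fell. QARS, the glutamine enzyme, was the lowest of the cytosolic log2 fold changes at -0.26 (SE 0.093, adjusted p = 0.12), with 189, 212 and 195 FPKM against 184, 153 and 161 and all lentivirus-circCSPP1 values below the controls. It passed without replicate 1, at -0.33 (adjusted p = 0.014). KARS, the lysine enzyme, differed by 0.024 (SE 0.097, adjusted p = 0.90), with a 95% interval of -0.20 to 0.25. DARS, the aspartate enzyme, had -0.19 (SE 0.11, adjusted p = 0.29), and RARS, the arginine enzyme, -0.24 (SE 0.23, adjusted p = 0.55). RARS had 69.9, 65.0 and 72.8 FPKM against 38.3, 76.0 and 68.0, replicate 1 lying far below all other libraries, and without that replicate its log2 fold change was 0.055 (adjusted p = 0.62).

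Outside the complex, 7 of 13 cytosolic enzymes rose (53.8%), beside the same 4.69% of all tested genes. Enzymes inside and outside the complex were not tested against each other. SARS (chr1:109213918-109238169, plus strand), the serine enzyme, measured 91.2, 93.8 and 89.0 FPKM against 147, 144 and 149.5, with tight groups that were far apart. Its log2 fold change of 0.68 (SE 0.07, adjusted p = 0.0030) had the smallest adjusted p of the 40 genes. GARS (chr7:30594681-30634033, plus strand), the glycine enzyme of both compartments, measured 290.3, 285 and 267 FPKM against 408, 488 and 447. No values overlapped, and the log2 fold change was 0.67 (SE 0.085, adjusted p = 0.0056). CARS (chr11:3000922-3057613, minus strand), the cysteine enzyme, measured 61.3, 60.4 and 53.2 FPKM against 83.3, 89.0 and 88.5, a log2 fold change of 0.57 (SE 0.088, adjusted p = 0.0099). WARS (chr14:100333788-100376805, minus strand), the tryptophan enzyme, which interferon-gamma is known to induce, measured 145, 135 and 194 FPKM against 245, 281 and 223. Its control replicate 3 lay well above the other controls and below all lentivirus-circCSPP1 libraries, and the log2 fold change was 0.67 (SE 0.15, adjusted p = 0.031). The SARS and GARS calls held in each fit that left out 1 library, and CARS lost its call only without lentivirus-circCSPP1 replicate 3 (adjusted p = 0.0501). WARS lost it without lentivirus-NC replicate 1 or 2 or lentivirus-circCSPP1 replicate 2 or 3 (adjusted p = 0.066 to 0.12).

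The remaining rises were smaller. NARS (chr18:57600656-57622213, minus strand), which charges asparagine, measured 211, 215 and 217 FPKM against 265, 329 and 298, a log2 fold change of 0.46 (SE 0.091, adjusted p = 0.020). YARS (chr1:32775237-32818153, minus strand), the tyrosine enzyme, measured 102, 96.5 and 96.6 FPKM against 131, 138 and 135, a log2 fold change of 0.45 (SE 0.072, adjusted p = 0.011). AARS (chr16:70252295-70289543, minus strand), which charges alanine and edits misacylated tRNA, was the most abundant member in the controls, with 492, 483 and 451 FPKM against 669.97, 601 and 604 and a log2 fold change of 0.39 (SE 0.074, adjusted p = 0.018). In all of them the lowest lentivirus-circCSPP1 library lay above the highest control. Each lost its call without any 1 of the lentivirus-NC libraries or without lentivirus-circCSPP1 replicate 3, with adjusted p from 0.056 to 0.094, while their log2 fold changes stayed between 0.34 and 0.54. NARS also lost it after quantile normalization and without moderation (adjusted p = 0.052 and 0.067), and AARS without moderation (adjusted p = 0.0504).

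**Figure D2:**
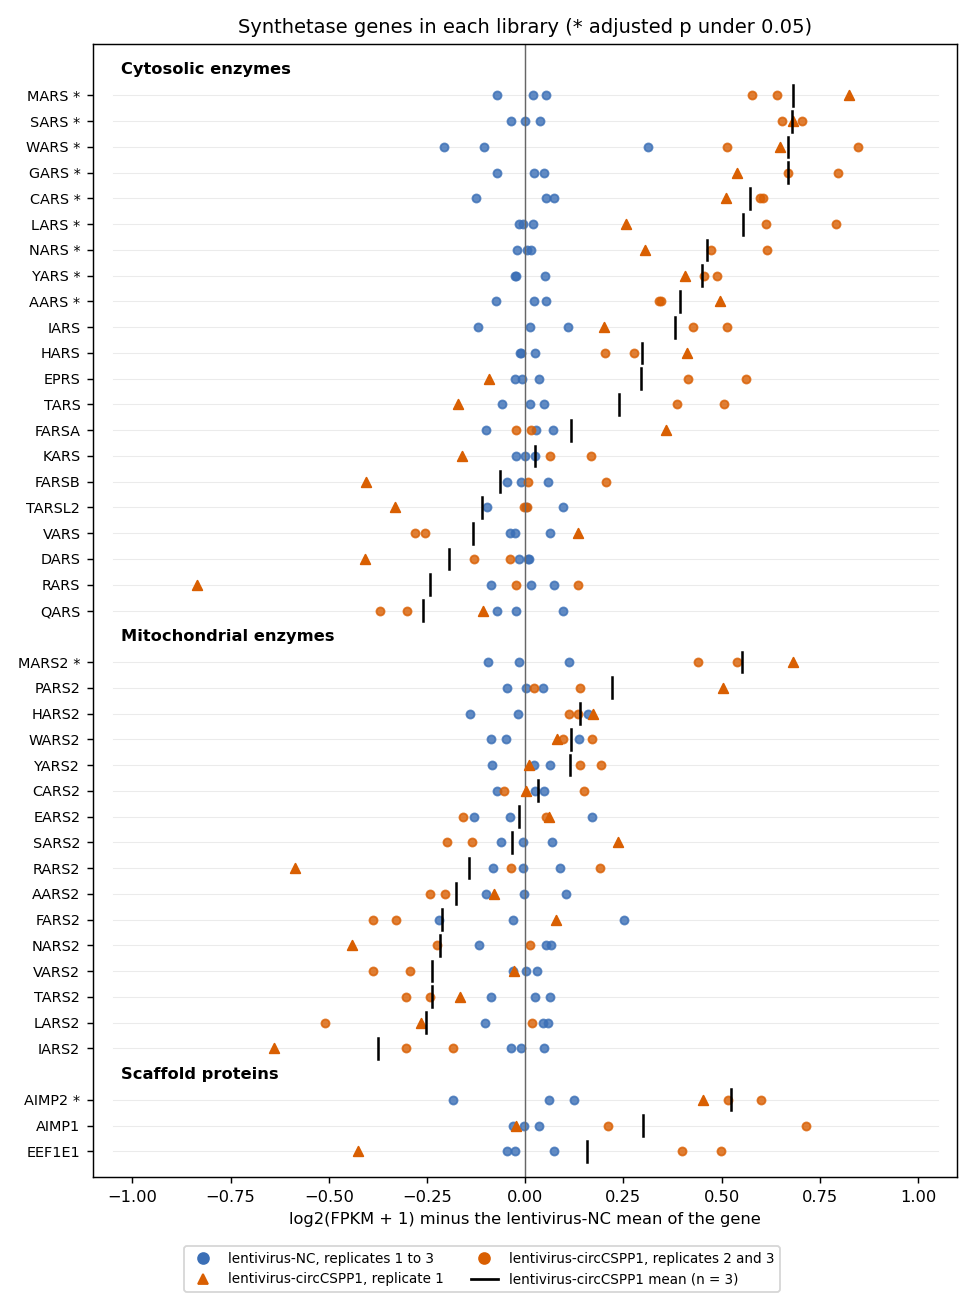
Value of each of the 40 genes in each library, as log2(FPKM + 1) minus the lentivirus-NC mean of the gene (horizontal axis), with 1 row per gene, blue points for lentivirus-NC, orange marks for lentivirus-circCSPP1 (triangle for replicate 1) and a bar at the lentivirus-circCSPP1 mean. The 9 starred cytosolic genes have all orange marks to the right of all blue points, and the triangles of RARS, EPRS, TARS and EEF1E1 lie far to the left of replicates 2 and 3.

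The remaining 6 enzymes outside the complex did not pass. HARS, the histidine enzyme, had 39.4, 40.5 and 39.5 FPKM against 53.2, 46.0 and 48.4, without overlap, and a log2 fold change of 0.30 (SE 0.088, adjusted p = 0.071), which was 0.24 (adjusted p = 0.027) without lentivirus-circCSPP1 replicate 1. TARS, the threonine enzyme, measured 306, 291 and 314 FPKM against 269, 431 and 397. Replicate 1 lay below the controls and replicates 2 and 3 above them. The log2 fold change of 0.24 (SE 0.17, adjusted p = 0.39) became 0.45 (adjusted p = 0.0045) without replicate 1. Without replicates 2 and 3 it was 0.11 and 0.17 (limma adjusted p = 0.68 and 0.65). In the fit without replicate 1, 13.2% of all tested genes rose and 15.3% fell. VARS, the valine enzyme, which binds the elongation factor complex, had 230.3, 228 and 245 FPKM against 257, 193 and 196. Its log2 fold change was -0.13 (SE 0.12, adjusted p = 0.51) with all libraries and -0.27 (adjusted p = 0.014) without replicate 1. The phenylalanine subunits FARSA and FARSB had log2 fold changes of 0.12 (SE 0.12, adjusted p = 0.57) and -0.064 (SE 0.16, adjusted p = 0.84), and TARSL2, another cytosolic threonine enzyme, of -0.11 (SE 0.13, adjusted p = 0.64). Their 95% intervals ran from -0.16 to 0.39, -0.45 to 0.32 and -0.42 to 0.20. By catalytic fold, 5 of 9 class I (55.6%) and 4 of 11 class II (36.4%) cytosolic enzymes rose, beside 4.69% of all tested genes. EPRS, which holds both folds, was left out, and the classes were not tested against each other.

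Among the scaffolds, AIMP2 (chr7:6009245-6023834, plus strand) measured 43.1, 34.6 and 41.2 FPKM against 54.4, 60.3 and 56.9, a log2 fold change of 0.52 (SE 0.11, adjusted p = 0.023), with no overlap. Its call was lost when any library other than lentivirus-circCSPP1 replicate 1 was left out (adjusted p = 0.052 to 0.094). In GENCODE, 28.9% of its exonic bases overlap those of EIF2AK1 on the opposite strand, and no source used here says whether strand was counted. AIMP1 measured 13.2, 13.0 and 13.6 FPKM against 13.1, 22.4 and 15.5, a log2 fold change of 0.30 (SE 0.18, adjusted p = 0.33). EEF1E1, also known as AIMP3, measured 46.9, 43.1 and 43.8 FPKM against 33.0, 63.3 and 59.1. Its log2 fold change went from 0.16 (SE 0.23, adjusted p = 0.70) to 0.45 (adjusted p = 0.0067) without lentivirus-circCSPP1 replicate 1, the library in which it was lowest of all. Over the fits that left out 1 library, this change ran from -0.013 to 0.45.

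Among the mitochondrial enzymes described, MARS2 rose from a low level. MARS2 (chr2:197705369-197708387, plus strand), the methionine enzyme of mitochondria, which also serves the formylated initiator, measured 3.80, 3.55 and 4.24 FPKM against 6.78, 6.05 and 5.58, a log2 fold change of 0.55 (SE 0.12, adjusted p = 0.027). The groups were apart, though at a level of a few FPKM where the scale understates the change. MARS2 lost its call when any library other than lentivirus-circCSPP1 replicate 1 was left out (adjusted p = 0.052 to 0.13).

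IARS2, the isoleucine enzyme and the most abundant of the mitochondrial set, had 77.5, 76.1 and 80.6 FPKM against 49.8, 68.6 and 63.0, and TARS2, the threonine enzyme, 46.2, 45.02 and 41.6 against 39.3, 35.6 and 37.2. All lentivirus-circCSPP1 values of both lay below the controls. Their log2 fold changes were -0.38 (SE 0.12, adjusted p = 0.095) and -0.24 (SE 0.088, adjusted p = 0.13), and both passed without lentivirus-circCSPP1 replicate 1, at -0.24 (adjusted p = 0.032) and -0.27 (adjusted p = 0.031). VARS2, the valine enzyme, had -0.24 (SE 0.11, adjusted p = 0.21) and also passed without replicate 1, at -0.34 (adjusted p = 0.011). In that fit 13.2% of all tested genes rose and 15.3% fell. Negative values that did not pass were those of LARS2 (-0.25), NARS2 (-0.22), FARS2 (-0.21), AARS2 (-0.18), RARS2 (-0.14), SARS2 (-0.033) and EARS2 (-0.015). Positive ones were those of PARS2 (0.22), HARS2 (0.14), WARS2 (0.12), YARS2 (0.11) and CARS2 (0.033). The standard errors of these 12 log2 fold changes were 0.093 to 0.2 and the adjusted p lay between 0.32 and 0.96. SARS2 shares 57.0% of its exonic bases with other annotated genes, VARS2 21.99% and HARS2, which runs head to head with HARS, 15.8%. Their counts are therefore uncertain where fragments could be split. The same holds outside the mitochondrial set, where the largest shares after AIMP2 were those of EEF1E1 (18.7%), MARS (13.3%), AIMP1 (11.6%) and WARS (10.6%).

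Comparing a cytosolic enzyme with the mitochondrial enzyme for the same amino acid asks whether the compartments shifted against each other within a library, and such a ratio does not depend on how a library was scaled. It can still carry a departure linked to GC content where the 2 genes differ, as LARS (41.5%) and LARS2 (50.8%) did. The ratios were not corrected for GC content. Of such pairs, 17 are described, 13 of them 1 gene against 1 other and the rest through EPRS or the phenylalanine subunits, so that some pairs share a gene. TARSL2 was not paired with TARS2. The log2 ratio of FPKM was on average higher with lentivirus-circCSPP1 in 16 pairs and lower in 1, RARS/RARS2, with a median change of 0.35. In 9 pairs all lentivirus-circCSPP1 ratios lay above all lentivirus-NC ratios, and in 0 they lay below. Over all pairs of tested genes above 0 in every library, 36.6% of ratios did not overlap in one direction or the other. With 3 libraries in each group, the exact two-sided permutation test of 1 pair cannot give a p below 0.10, which is the value in each of those 9 pairs.

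Leucine had the widest mean shift. The LARS/LARS2 log2 ratio was 3.23, 3.43 and 3.22 with lentivirus-NC and 3.85, 4.66 and 3.89 with lentivirus-circCSPP1, and replicate 2 had both the highest LARS and the lowest LARS2. For isoleucine, IARS/IARS2 was 1.02, 0.82 and 0.87 with lentivirus-NC and 1.75, 1.52 and 1.73 with lentivirus-circCSPP1, where neither gene passed alone. SARS/SARS2 was 1.74, 1.83 and 1.62 with lentivirus-NC and 2.17, 2.60 and 2.58 with lentivirus-circCSPP1. In each of these pairs the lowest lentivirus-circCSPP1 ratio stood above the highest control ratio. MARS/MARS2 overlapped, at 6.89, 7.02 and 6.64 with lentivirus-NC and 6.86, 6.78 and 6.96 with lentivirus-circCSPP1, both genes having risen. For methionine the cytosolic transcript was about 115 times as abundant as the mitochondrial one in the controls, and for cysteine 1.57 times. Of the 17 pairs, FARSB/FARS2 was the only one with the cytosolic transcript below the mitochondrial one, at a ratio of 0.532. TARSL2, with a control mean of 6.31 FPKM, also lay below TARS2, with 44.3 FPKM, but was not among the pairs.

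**Figure D3:**
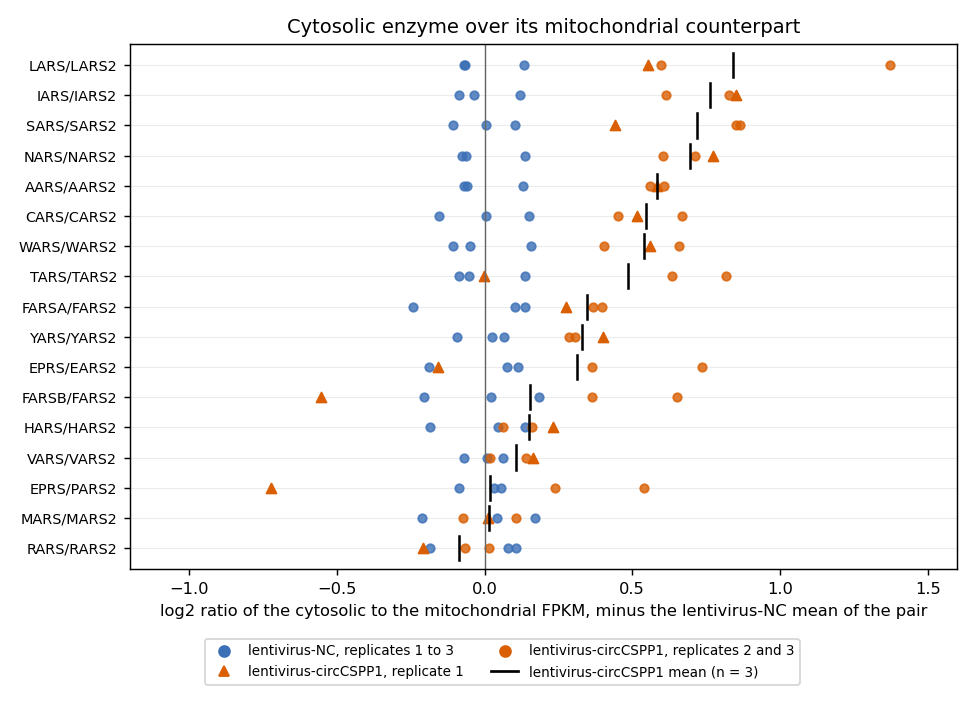
Log2 ratio of the cytosolic to the mitochondrial FPKM for each amino acid, minus the lentivirus-NC mean of the pair (horizontal axis), with 1 row per pair and the marks as in the plot of single genes. In 9 of 17 rows all orange marks lie to the right of all blue points.

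By level per transcript length, the cytosolic enzyme was above its mitochondrial counterpart in 16 of the 17 pairs. In the controls the cytosolic means ran from 6.31 FPKM (TARSL2) to 475 FPKM (AARS), with a median of 98.3, and the mitochondrial means from 3.21 FPKM (PARS2) to 78.1 FPKM (IARS2), with a median of 13.8. AARS and MARS led in both groups, AARS at 475 ± 21.6 against 625 ± 38.9 FPKM (SD, n = 3 in each group) and MARS at 445 ± 19.8 against 715 ± 64.8 FPKM (SD, n = 3 in each group). Their control values came close, MARS replicate 2 reaching 461 FPKM and AARS replicate 3 451. With lentivirus-circCSPP1 the order changed, and MARS lay above AARS in each of the 3 libraries.

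Lentivirus-circCSPP1 replicate 1 differed from replicates 2 and 3 in these genes along with the GC content of the transcript. Across the 40 genes the Spearman correlation of its departure with GC content was 0.849, beside 0.784 across 12310 tested genes. For lentivirus-circCSPP1 replicates 2 and 3 it was -0.825 and -0.589 in the 40 genes, and -0.733 and -0.482 across the 12310. For each lentivirus-NC library it lay between -0.044 and 0.032 in the 40 genes. Each departure is from the mean of the other libraries of the group, so these correlations do not place the trend in replicate 1 alone. These are descriptions across genes that share libraries. All 14 genes with a GC content under 45% were lower in replicate 1 than the mean of replicates 2 and 3, with a median departure of -0.46 on the log2 scale, RARS and EEF1E1 the most. Of 9 with at least 55%, 7 were higher there, FARS2 and SARS2 among them. The cytosolic enzymes had a median GC content of 46.8% and the mitochondrial ones 51.2%. After each library had been corrected for GC content and length, 12 cytosolic enzymes rose and 1 fell (QARS), against 14.7% and 13.9% of all genes, and 1 mitochondrial enzyme rose and 2 fell. The added cytosolic rises were IARS at 0.42 (adjusted p = 0.0094), HARS at 0.33 (adjusted p = 0.042) and EPRS at 0.34 (adjusted p = 0.031). The mitochondrial falls were IARS2 and TARS2, at -0.34 (adjusted p = 0.0080) and -0.23 (adjusted p = 0.025). In that fit all 3 scaffolds rose. The correction was made on the same libraries, and the part of GC content in the uncorrected values was not otherwise tested.

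**Figure D4:**
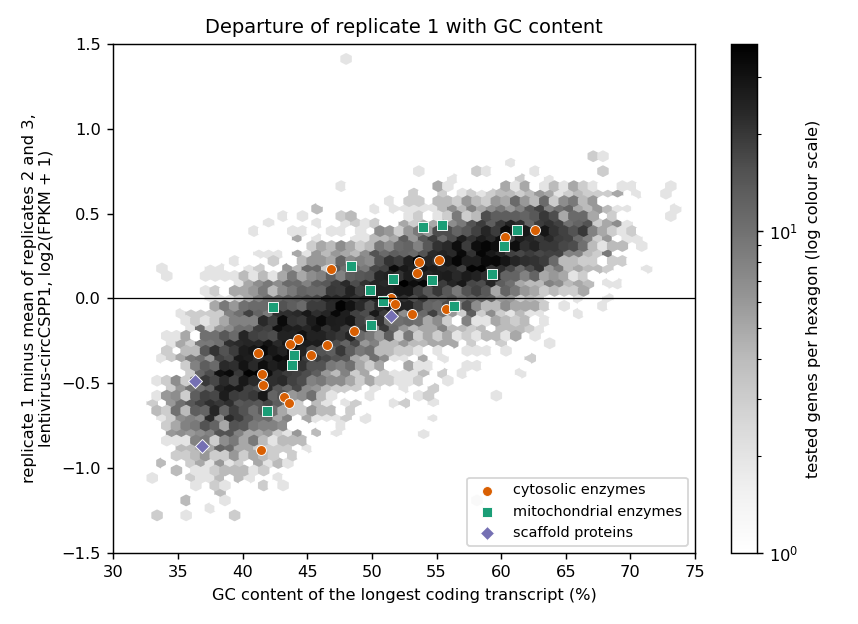
Departure of lentivirus-circCSPP1 replicate 1 from the mean of replicates 2 and 3 on log2(FPKM + 1) (vertical axis) against the GC content of the longest coding transcript in percent (horizontal axis), for all tested genes as grey hexagons and for the 40 genes as coloured marks. The coloured marks follow the grey cloud from negative departures at low GC content to positive ones at high GC content.

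Of 25 partners in charging and delivering tRNA, 1 rose, a share of 4% beside 4.69% of all tested genes, and 0 fell, beside 6.66%. Their median log2 fold change was 0.12, with 19 positive and 6 negative. The groups did not overlap for 7 partners that were higher and 2 that were lower, beside 16% and 20.5% of all tested genes. PTRH2, a peptidyl-tRNA hydrolase, measured 19.6, 20.8 and 20.8 FPKM against 25.0, 27.4 and 28.7, a log2 fold change of 0.39 (SE 0.094, adjusted p = 0.040), with no overlap. Of the partners that did not pass, XPOT, EEF1A1, EEF1G and GATB are given after their values were seen. XPOT, the exporter that carries mature tRNA out of the nucleus, measured 128, 129.8 and 126 FPKM against 135, 212 and 189.8. All its lentivirus-circCSPP1 values were above the controls, replicate 1 by little, and the log2 fold change was 0.46 (SE 0.16, adjusted p = 0.11) with all libraries and 0.65 (adjusted p = 0.0021) without replicate 1. EEF1A1, which takes charged tRNA to the ribosome, and EEF1G, a subunit of its exchange factor, had log2 fold changes of 0.21 (SE 0.072, adjusted p = 0.11) and 0.23 (SE 0.074, adjusted p = 0.093). GATB, a subunit of the amidotransferase that makes glutaminyl-tRNA in mitochondria, had -0.33 (SE 0.12, adjusted p = 0.11), its lentivirus-circCSPP1 values all below the controls. Without lentivirus-circCSPP1 replicate 1, 6 partners were higher and 1 lower, in the fit where 13.2% of all genes rose and 15.3% fell. With any 1 lentivirus-NC library or lentivirus-circCSPP1 replicate 3 left out, 0 passed. Of 78 mitochondrial ribosomal protein genes, 1 rose (1.28%) and 0 fell, with a median log2 fold change of 0.056. Of 54 genes named EIF, 4 rose (7.41%) and 1 fell (1.85%), with a median of -0.0014. These shares stand beside the same 4.69% and 6.66% of all tested genes. These counts were not tested against those of the synthetases.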

How the data were processed

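The data are RNA-seq of 6 DU145 libraries, 3 with lentivirus-NC and 3 with lentivirus-circCSPP1, grouped by their titles. The authors selected polyadenylated RNA, read it by paired-end Illumina sequencing and deposited FPKM values in a single table, rounded to 2 decimals, with genome build hg38 named in the submitters' processing notes. The aligner, the FPKM program and the annotation are not given in the sources used here. All 6 columns were matched by group and replicate number, and 0 were left unused.

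Values were taken to log2(FPKM + 1), genes averaging 1 FPKM or more were kept (12322 of 19727), and the groups were compared by a trended limma fit (version 3.58.1, R 4.3.3) without covariates, two-sided, with Benjamini-Hochberg adjustment. A fold change on this scale understates that of low genes. Lengths, GC content, coordinates and overlaps came from GENCODE 29 (GRCh38) and promoters from RefSeq (GRCh38.p14). Depth was the step at which FPKM times length fell within 0.15 of whole fragments for 92.0% to 97.9% of low values per library.

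All 40 members described are named, as are partners that passed, CSPP1, ATF4 and ASNS. XPOT, EEF1A1, EEF1G and GATB were picked for naming after their values were seen. 1 more gene that matches the rule is not reported here and is left out of the counts, sums, medians and pairs of members, though it stayed in the fit. The members and lists were chosen with earlier results of these data known. Same-numbered libraries deviated together at correlations of 0.073, 0.0065 and 0.057, so the numbers were not taken as pairs. The fit was also run on simulated data with independent normal noise for each gene and no departure linked to GC content. That run cannot show how the fit behaves with such a departure. Alternatives were pseudocounts of 0.1 and 0.01, no filter or 5 FPKM, TPM, median-ratio and quantile scaling, no moderation, robust eBayes, a replicate block, each library left out, and a loess correction for GC content and length, alone and with the block, and, chosen after seeing the data, without lentivirus-circCSPP1 replicate 1.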

Additional observations from a re-analysis of the deposited data

How the results depend on the processing

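With 1 library left out, the genes past an adjusted p of 0.05 numbered 300 to 3512 over all genes, 3 to 15 for cytosolic enzymes, 0 to 4 for mitochondrial enzymes, 0 to 2 for scaffolds and 0 to 7 for the partners, against 1399, 9, 1, 1 and 1 with all 6, and the medians ran from 0.29 to 0.45 (cytosolic) and -0.095 to -0.036 (mitochondrial). Without moderation of the variance the counts were 834, 5, 0, 0 and 2. With the replicate block they were 923, 8, 0, 0 and 0; same-numbered libraries share only a number, and WARS, MARS2 and AIMP2 lost their calls there (adjusted p = 0.053, 0.063 and 0.053 by limma). After the GC and length correction they were 3525, 13, 3, 3 and 7, with the block added 2758, 10, 2, 1 and 4, and with lentivirus-circCSPP1 replicate 1 left out instead 3771, 15, 3, 2 and 5 (medians 0.39 and -0.029). The partners numbered 2 with median-ratio scaling. Quantile normalization gave 7 cytosolic enzymes higher, without LARS and NARS, and 1 lower (QARS, adjusted p = 0.039 by limma). With no filter 8 cytosolic enzymes were higher, without LARS, and median-ratio scaling added IARS for 10. Without moderation WARS, LARS, NARS, AARS, MARS2 and AIMP2 did not pass (limma adjusted p = 0.12, 0.13, 0.067, 0.0504, 0.053 and 0.068).

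Over the 19 alternatives MARS, SARS and GARS passed each time, and no gene that passed changed sign. Of the genes that did not pass, these took the other sign: EARS2 (-0.080 to 0.070 with 1 library left out, 0.0023 by TPM, 0.025 by median ratio, 0.0039 by quantile, 0.0061 by GC correction, 0.0061 by GC correction with replicate block), SARS2 (-0.17 to 0.050 with 1 library left out, 0.0084 by median ratio), FARSB (-0.20 to 0.11 with 1 library left out, 0.0052 by quantile, 0.026 by GC correction without lentivirus-circCSPP1 replicate 1), KARS (-0.048 to 0.12 with 1 library left out, -0.051 by quantile), CARS2 (-0.025 to 0.076 with 1 library left out), FARSA (-0.0041 to 0.19 with 1 library left out), TARSL2 (-0.17 to 0.0015 with 1 library left out), RARS (-0.43 to 0.055 with 1 library left out), RARS2 (-0.31 to 0.077 with 1 library left out) and EEF1E1 (-0.013 to 0.45 with 1 library left out). The causes were not tested. With 3 libraries in each group, a gene that missed the threshold is not shown to be unchanged. FPKM values carry no count error, so depth enters only through the estimate from low values.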
